A study of Xenopus laevis with 12 samples.

Results

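The 4 libraries lettered A in the count table were set against the 8 libraries lettered B or C. They were chosen by that letter alone, 4 of the 12 libraries in all, 1 in each of 4 groups, and every comparison was made with the group held constant. Each library was a pool of 15 whole wild-type *Xenopus laevis* embryos of nominal stage 25. The groups were embryos given 90 µM thioridazine, an antipsychotic drug that blocks dopamine receptors, from stage 12.5 onward and raised 300 or 100 to a group, and control embryos without the drug, raised 300 or 100 to a group. The same treatment temperature is listed for all 12 libraries, and the study's text puts it above that of rearing before exposure. The labels number the 3 libraries of a group without saying what sets the numbers apart, and the study's text describes the embryos both as 1 clutch and as pooled from several mothers. It also says that experiments were repeated over several weeks and that a batch was adjusted for, without tying either to these numbers. Clutch, week, batch, dish and handling therefore cannot be told apart as what the letter stands for, and the p-values measure only the spread between these libraries. No library of another stage was analysed here, so the developmental age of the A embryos was not tested. Values for A libraries are given in the order thioridazine 300, thioridazine 100, control 300, control 100, and a library is named in that way below (thioridazine 100 A).

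*Xenopus* embryos are staged by their outer form. At the early tail bud stage the neural tube has closed, somites are being cut from the presomitic mesoderm at the tail end, primary neurons extend axons, the muscle of the anterior somites contracts, the skin carries beating multiciliated cells, and the first myeloid cells migrate. Programs follow each other in a known order: genes of the gastrula and the undifferentiated tail bud fade, regulators of each cell type act for a time, and products of differentiated cells such as contractile proteins, axonal proteins and collagens accumulate. Many *X. laevis* genes exist as 2 homeologs, copies on the chromosomes called L and S, which are named with these letters. RNA of whole embryos was measured, so fewer cells of a type and less RNA per cell cannot be told apart.

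Total expected counts ranged from 5147104 to 7222013 in A libraries and from 3497198 to 7822395 in B and C libraries, which did not differ in mean beyond the spread (exact permutation test within groups, two-sided, p = 0.296, where 0.0123 is the smallest p that 81 arrangements allow). More genes reached a level of 1 CPM (counts scaled to the total of the library) in A libraries, 22385 to 22738, against 21508 to 22195 in B and C libraries (same exact test, p = 0.0123, the smallest possible). Correlations of log2 CPM over all genes tested were 0.963 to 0.978 among A libraries, 0.907 to 0.941 between A and B, 0.875 to 0.944 between A and C, and 0.934 to 0.973 between B and C, and every pair of libraries differed by more than counting noise. Of the variance of the 500 most variable genes, 54.6% lay on component 1, where the A libraries scored 30.4, 33.3, 42.6 and 29.2 and the B and C libraries −24.8 to −12.6. Component 2, with 13.6%, parted B from C.

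**Figure D1:**
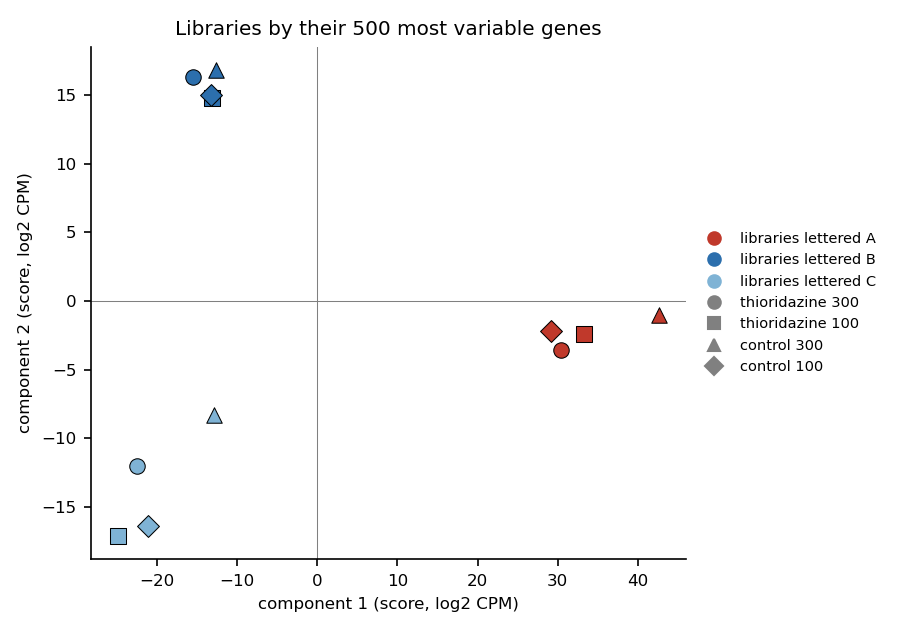
Scores of the 12 libraries on the first 2 principal components of the 500 most variable genes (log2 CPM), colored by letter, with a symbol for each group. The A libraries lie at 29.2 to 42.6 on component 1 and the B and C libraries at −24.8 to −12.6, while B and C part on component 2.

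Of 21731 genes tested with edgeR's quasi-likelihood test, 7636 (35.1%) differed between A and B and C libraries at an adjusted p under 0.05. Of these, 4342 (20.0% of genes tested) were higher in A libraries, with a median log2 fold change of 0.91, and 3294 (15.2%) were lower, with a median of −0.60. Scaled by library totals alone, 5031 were higher and 2269 lower. A change of at least 2-fold was called for 1899 genes higher (8.74%) and 620 lower (2.85%). All 4 A values lay outside the range of the 8 B and C values for 2748 genes on the high side (12.6%) and 1779 on the low side (8.19%). The median log2 fold change over all genes was 0.01 with TMM scaling, which centers the table, and 0.09 with library totals alone. In a fit with the 3 letters apart, 7821 genes (36.0%) were called for A against B, 20.1% higher and 15.9% lower. For A against C 7234 (33.3%) were called, 18.4% higher and 14.8% lower, and for B against C 530 (2.44%), 0.649% higher and 1.79% lower. A against B and A against C share the A libraries and are given side by side only. The median absolute log2 difference was 0.37 for A minus B, 0.37 for A minus C and 0.22 for B minus C. Within 1 treatment, with 2 A libraries against 4, 1361 genes were called among thioridazine libraries and 2600 among control libraries. Leaving out 1 A library took the count to 4913 without that of control groups of 300 and to 4961 without that of thioridazine groups of 100. The count for A against B was 4998 without the B library of control groups of 300, and that for B against C was 205 to 1124 with 1 library left out, the lowest without the C library of thioridazine groups of 100 and the highest without the A library of control groups of 100. Of the genes named hereafter that were followed over these settings, myod1.S, mcidas.S, tp73.L, cdx1.L, hoxb1.L, hoxc12.L, rfc5.L, hba-l5.L and mitf.S were called within neither treatment alone. Not called among thioridazine libraries alone were also ckm.L, tnnt3.L, myf6.L, neurod1.L, neurod1.S, dnah5.L, e2f4.S, myb.L and nr2f1.L. The same held, among others, for alas2.L, foxa4.L, sox17b.1.L, pmel.S, ccnd2.L, hspa5.L and vegt.S. Among control libraries alone pax8.S, gata2.S and ccna2.L were not called. The lower genes jsrp1.S, rbm20.S, rbm20.L, apobec2.L, rbm24.L, rbm24.S, klhl40.L, tf.L, slc5a9.L, slc22a4.L and slc9a3.L were not followed in this way.

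Genes were read in 46 lists of tissues and programs, matched by symbol. Every count of members called below is to be read beside the 20.0% higher and 15.2% lower among all genes tested. On the high side the lists with the largest medians among those with at least 8 tested members were myeloid cells (1.31), differentiating neurons (1.06), endothelium (0.80), glycolysis (0.75), multiciliated cells (0.66), cartilage and collagen matrix (0.62), late differentiation products (0.62), lens and retina (0.53) and skeletal muscle (0.45). On the low side were genes of the gastrula and early neurula (−0.70), of the tail bud and presomitic mesoderm (−0.47) and of the germ plasm and maternal store (−0.30). Lists share members, so they are not separate results. Other lists also held 75 of the 93 gastrula members and 23 of the 26 late differentiation products. The filter on low counts could be passed through A libraries alone by a gene that is high only there. This held for 910 genes, with 36 of the 127 neuronal members, 13 of the 103 matrix members and 7 of the 27 myeloid members. Another 948 genes passed through B and C alone. Among them were 11 of the 93 gastrula members, 9 of the 52 germ plasm and maternal members and 6 of the 138 multiciliated members. Of the 910 genes, 723 were called higher, among them 33 neuronal, 12 matrix, 7 muscle, 6 myeloid, 3 endothelial and 3 glycolysis members. The pigment list and the placode and ear list held 3 such members each. The counts and medians of these lists were thus set in part by the filter.

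**Figure D2:**
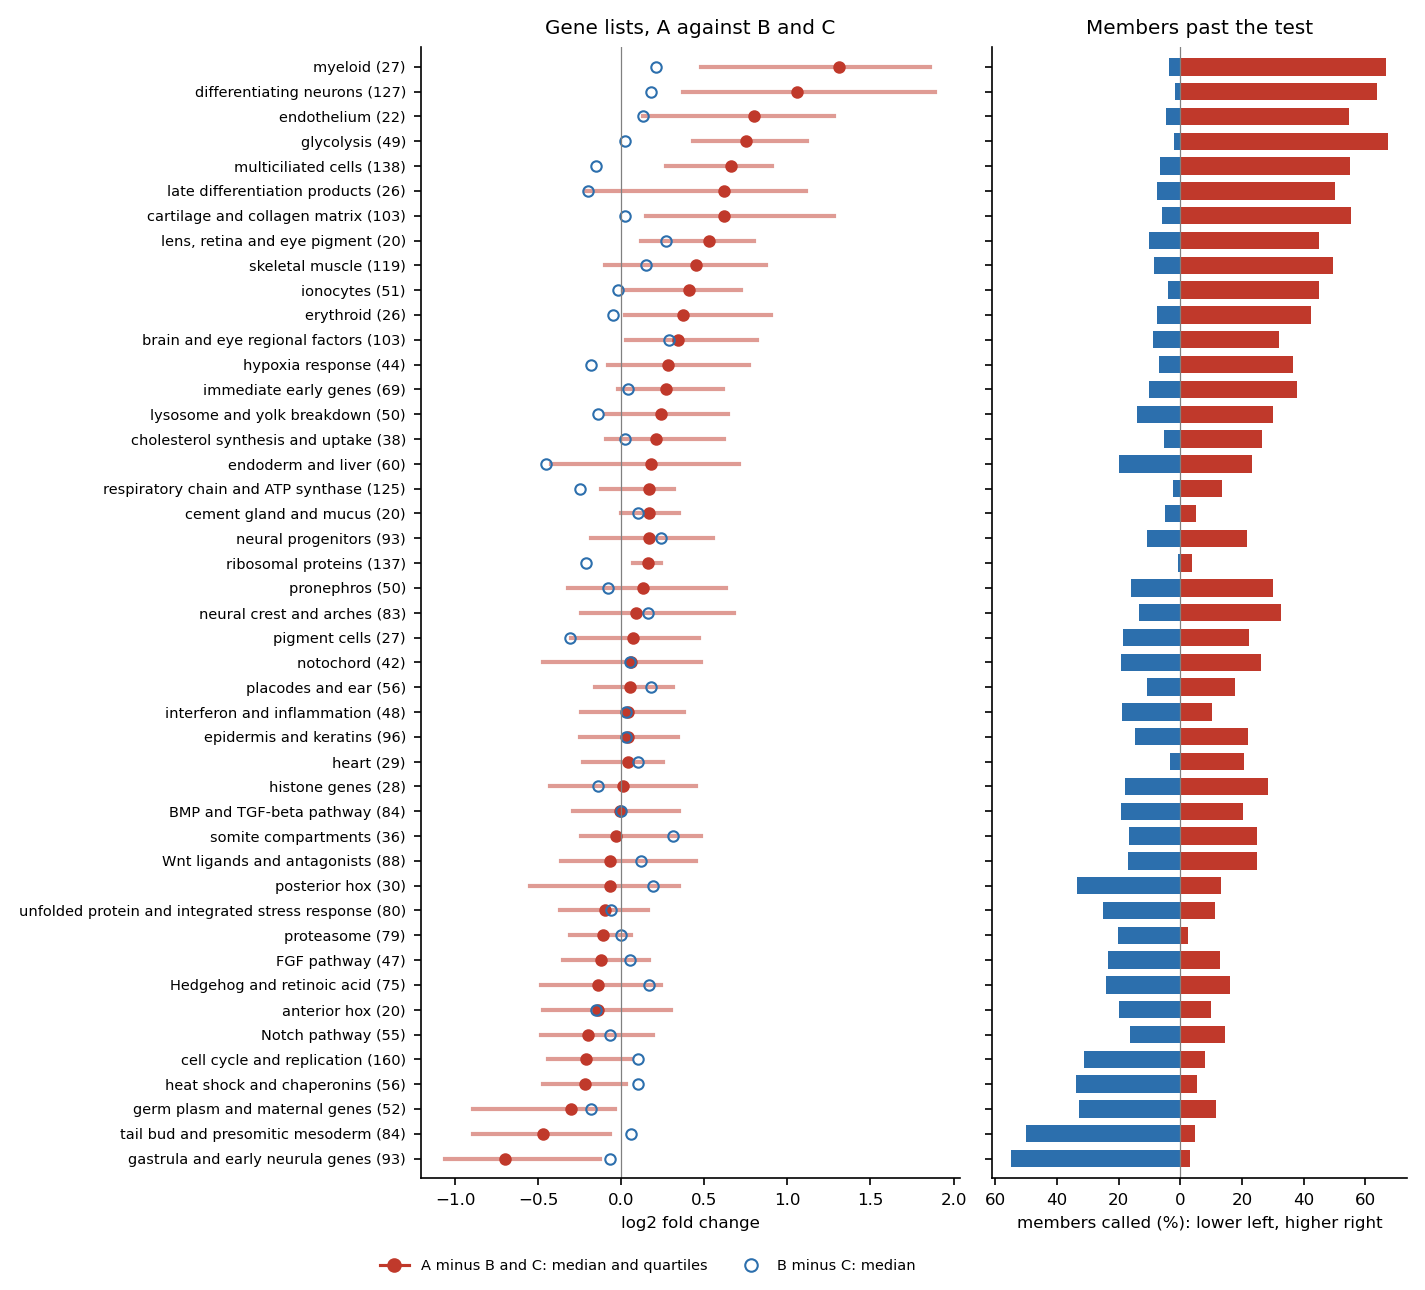
Left, the median log2 fold change (A minus B and C, filled, with quartiles) of each gene list with at least 8 tested members, with the number of members tested, and the median for B minus C (open). Right, the percentage of members called lower or higher in A libraries. Myeloid cells, with a median of 1.31, stand at the top and genes of the gastrula and early neurula, at −0.70, at the bottom.

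Genes of glucose production were among those with the largest fold changes. g6pc1.3.L, a copy of glucose-6-phosphatase, which releases free glucose in the last step of gluconeogenesis, had 58.0, 24.5, 38.8 and 20.6 CPM in A libraries, against 0 to 0.602 CPM with a median of 0.241 in B and C libraries (log2 fold change 6.94, standard error 0.34, edgeR adjusted p = 9.38e-08). Every A library was at least 20 CPM and no B or C library reached 1 CPM. The counts over the 8 B and C libraries were 11, so the ratio of 128 has a 95% counting interval of 71.1 to 257, which covers counting error only. The other copy, g6pc1.3.S, differed likewise (log2 fold change 6.42), as did pck1.L, the phosphoenolpyruvate carboxykinase that commits carbon to glucose, with 20.8, 12.53, 58.5 and 10.7 CPM in A libraries, against 0 to 0.880 CPM with a median of 0.323 in B and C libraries (log2 fold change 5.71, standard error 0.33, edgeR adjusted p = 2.14e-07). g6pc1.3.L, g6pc1.3.S and pck1.L passed the filter on low counts through A libraries alone, as did 723 of the genes called higher. Their entry into the test thus rested on the libraries where they were high. Of the 49 glycolysis and gluconeogenesis genes tested, 33 were higher in A libraries and 1 lower, against 20.0% and 15.2% of all genes. This list holds pck1.L but not the g6pc1.3 copies. ldha.S, lactate dehydrogenase A, was higher by a log2 fold change of 2.35 (edgeR adjusted p = 2.23e-08), the glycolytic enzymes pgam2.S and pgk1.L by 2.44 and 1.75, and the muscle enolase eno3.L by 4.31. With 1 library left out, 28 to 36 members of the list were higher.

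**Figure D3:**
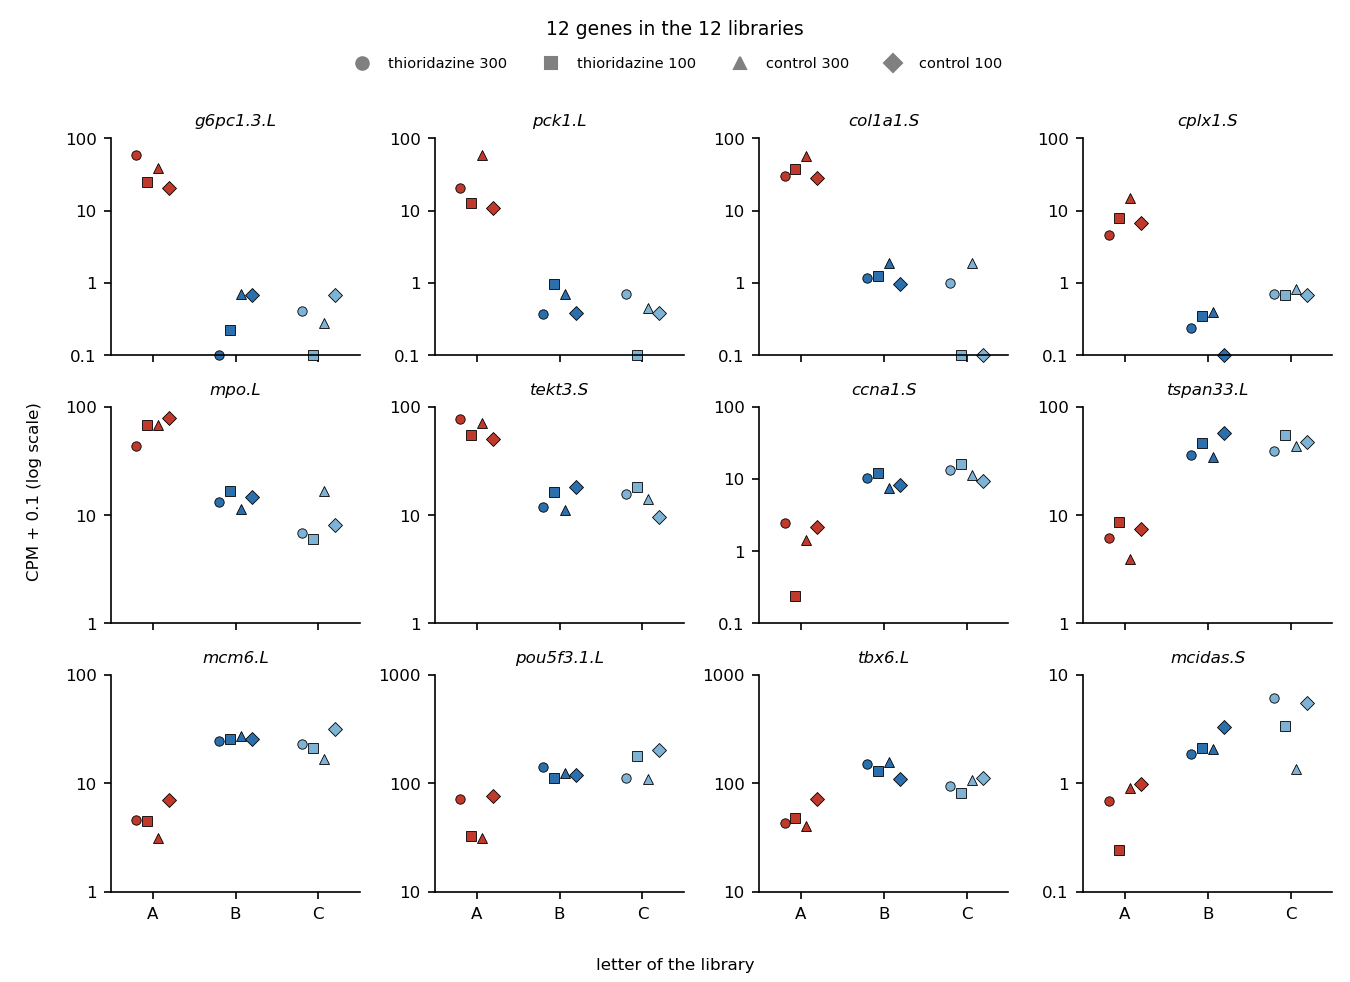
CPM plus 0.1 on a log scale for 12 genes in each library, by letter, with a symbol for each group. g6pc1.3.L to tekt3.S lie above all B and C libraries in every A library, and ccna1.S to mcidas.S lie below them in every A library. Most of these genes were chosen for no overlap, for a small p or after their values were seen. The separation shown was thus largely set by that choice. Over all genes tested, 12.6% lay above and 8.19% below in this way.

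Products of differentiating neurons were higher as a group. Of 127 tested genes of differentiating neurons, 81 were higher in A libraries and 2 lower, against 20.0% and 15.2% of all genes. In all 4 A libraries 58 lay above all B and C values, against 12.6% of all genes. Of the 81, 33 had passed the filter through A libraries alone. tubb3.L, the neuronal beta-tubulin, had 42.4, 49.7, 59.7 and 54.0 CPM in A libraries, against 4.57 to 19.4 CPM with a median of 11.7 in B and C libraries (log2 fold change 2.32, standard error 0.25, edgeR adjusted p = 4.71e-05). stmn2.S, a microtubule regulator of growing axons, had 14.99, 19.4, 23.1 and 16.1 CPM in A libraries, against 1.71 to 5.17 CPM with a median of 3.56 in B and C libraries (log2 fold change 2.34). The groups did not overlap for either gene. cplx1.S, complexin 1 of the synaptic release machinery, was higher by 4.47, gap43.S, a growth cone protein, by 2.65, and the RNA-binding protein elavl4.L of postmitotic neurons by 2.19. neurod1.L and neurod1.S, factors of neuronal differentiation, were higher by 1.36 and 1.73, whereas neurog1.L, which acts before them, was not called (0.08, edgeR adjusted p = 0.874). Nor were tubb2b.L (0.26, edgeR adjusted p = 0.197) or syt1.L (−0.37, edgeR adjusted p = 0.257), a synaptic vesicle protein. Of the list 44 members were not called. With 1 library left out, 61 to 80 members of the list were higher.

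Of 93 neural progenitor genes, 20 were higher and 10 lower in A libraries, shares of the same order as among all genes, and their median of 0.17 turned to −0.01 without control 100 A. The higher count was 11 without thioridazine 100 A and the lower count 6 without control 300 A. sox2.L, a progenitor factor, was not called (0.44, edgeR adjusted p = 0.112), although it passed among control libraries alone (0.79) and without the A or the B library of thioridazine groups of 300 (0.63 and 0.56). The members with the smallest p were genes of radial glia, the fatty acid binding protein fabp7.L (2.98) and the glutamate transporter slc1a3.L, which had 119, 152, 209 and 157 CPM in A libraries, against 22.0 to 71.7 CPM with a median of 41.4 in B and C libraries (log2 fold change 1.95, standard error 0.18, edgeR adjusted p = 7.49e-06). Of 103 regional factors of brain and eye, 33 were higher and 9 lower. The higher count was 21 without control 100 A and 2 among thioridazine libraries alone, and the lower count 3 without thioridazine 300 A and 14 without control 100 A. Higher were the forebrain factors arx.L (1.47) and dlx2.L (1.41) and the orphan nuclear receptor nr2f1.L (1.26), while otx2.L, present from the gastrula on, was not called (0.07, edgeR adjusted p = 0.746).

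In the skeletal muscle list of 119 tested genes, 59 were higher and 10 lower in A libraries, and the 10, which were 5 without thioridazine 300 A, included factors that act early. The myogenic factor myf5.S, which acts first in muscle precursors, had 9.54, 6.41, 7.42 and 10.5 CPM in A libraries, against 17.5 to 29.7 CPM with a median of 19.5 in B and C libraries (log2 fold change −1.36, standard error 0.17, edgeR adjusted p = 8.80e-05), and myf5.L and myod1.S were lower at log2 fold changes of −0.83 and −0.63. The other copy, myod1.L, was not called (−0.32, edgeR adjusted p = 0.103), and neither was myog.S, myogenin (−0.33, edgeR adjusted p = 0.483). All 4 A values of both myf5 copies lay below the B and C range. The other lower members were jsrp1.S (−0.99), rbm20.S (−0.96), rbm20.L (−0.47), apobec2.L (−0.90), rbm24.L (−0.62), rbm24.S (−0.52) and klhl40.L (−0.52). The late myogenic factor myf6.L was higher (0.90). Among the 59 were contractile and energy genes: troponin T tnnt3.L by 0.85, tropomyosin tpm2.L by 1.29, creatine kinase ckm.L by 0.74, the M-band protein myom2.L by 2.199 and the Z-disc protein myoz1.S by 3.43. myh4.L, a myosin heavy chain already abundant at this stage, was not called (0.26, edgeR adjusted p = 0.378). The 15 tested genes named ocm4, small calcium buffers of the parvalbumin family that lie close together and share sequence, so that reads may be divided wrongly among them, were all higher. Their summed level was 118, 186, 349 and 105 CPM in A libraries, against 8.49 to 34.7 CPM in B and C libraries. The cardiac list was near the background, with 6 of 29 higher and 1 lower, and 3 higher without thioridazine 100 A.

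Collagens and other matrix genes were higher in 57 of 103 cases and lower in 6, a lower count that was 3 without thioridazine 100 A and 12 without control 100 A. col1a1.S, a chain of type I collagen, the main collagen of dermis and bone, had 30.4, 38.2, 57.6 and 28.5 CPM in A libraries, against 0 to 1.81 CPM with a median of 0.992 in B and C libraries (log2 fold change 5.23, standard error 0.26, edgeR adjusted p = 9.38e-08). Values of the type VI chains col6a2.L and col6a1.L were higher by 4.32 and 3.91, of type III col3a1.L by 4.19, and of the small leucine-rich proteoglycans of collagen fibers lum.L, dcn.L and ogn.L by 4.21, 2.19 and 2.41. These fibroblast products were scarcely counted in B and C libraries, where lum.L had 0.295 to 2.14 CPM with a median of 1.103. The cartilage and notochord collagen col2a1.L differed less (0.55, edgeR adjusted p = 0.0104) and was at 0.39 (edgeR adjusted p = 0.0501) without the A library of control groups of 100. Among the 6 lower members was plod2.L (−1.01), which modifies collagen.

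Myeloid cells, the first blood cells to migrate, had the largest median of the lists. Of 27 myeloid genes tested, of 42 in the table, 18 were higher in A libraries and 1 lower. mpo.L, myeloperoxidase, the granule enzyme of early frog myeloid cells, had 43.6, 68.1, 67.2 and 79.3 CPM in A libraries, against 5.901 to 16.7 CPM with a median of 12.16 in B and C libraries (log2 fold change 2.42, standard error 0.23, edgeR adjusted p = 1.72e-05). The lineage factor spi1.L was higher by 2.89, the leukocyte GTPase rac2.L by 2.52, lcp1.L by 1.95 and the protease mmp7.L by 2.38. spib.L, a factor of early embryonic myeloid cells, was not called (−0.03, edgeR adjusted p = 0.932), and cd74.L, the invariant chain of antigen presentation, was the member that was lower (−1.503). The count of 18 came to 13 without the A library of control groups of 100. Of 22 endothelial genes 12 were higher and 1 lower, with the transcription factor fli1.L at 1.84, the receptor kdr.S at 1.27 and egfl7.L at 1.64. Of 26 erythroid genes 11 were higher and 2 lower. The globin genes were not called alike: hba4.S had 9.93, 14.1, 19.1 and 10.4 CPM in A libraries, against 0.606 to 3.999 CPM with a median of 1.63 in B and C libraries (log2 fold change 2.86, standard error 0.35, edgeR adjusted p = 8.67e-05), whereas hba-l5.L was lower (−1.09, edgeR adjusted p = 0.00806), a call lost without the A library of thioridazine groups of 100, and hba3.L was not called (0.91, edgeR adjusted p = 0.0954) except without the A library of control groups of 100 or the C library of thioridazine groups of 100. alas2.L, the first enzyme of erythroid heme synthesis, was higher (1.42).

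In the multiciliated cell list 76 of 138 tested genes were higher and 9 lower. Among the 76 were axonemal proteins such as tekt3.S, a tektin of the ciliary microtubules, with 76.7, 54.5, 70.1 and 49.8 CPM in A libraries, against 9.43 to 18 CPM with a median of 14.8 in B and C libraries (log2 fold change 2.15, standard error 0.17, edgeR adjusted p = 2.09e-06), the dynein intermediate chain dnai1.L (1.12), the dynein heavy chain dnah5.L (0.93) and the central pair protein spag6.L (1.14). Regulators of the program were called on both sides. mcidas.S, the multicilin that commits a cell to making many cilia, had 0.584, 0.142, 0.795 and 0.878 CPM in A libraries, against 1.25 to 6.06 CPM with a median of 2.60 in B and C libraries (log2 fold change −2.23, standard error 0.49, edgeR adjusted p = 0.00366), so all 4 A values lay below the B and C range at low counts. The gene passed the filter through B and C libraries alone. deup1.L, which builds the platforms on which centrioles multiply, was lower at −2.17, and e2f4.S, a partner of multicilin, at −0.65. Higher were the transcription factors myb.L (0.67) and tp73.L (0.75) and ccdc78.S (1.21), which acts in centriole multiplication. foxn4.L (0.00, edgeR adjusted p = 0.989) and rfx2.S (−0.32, edgeR adjusted p = 0.191) were not called. foxj1.L, the factor of motile cilia, was not called either (0.36, edgeR adjusted p = 0.164).

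**Figure D4:**
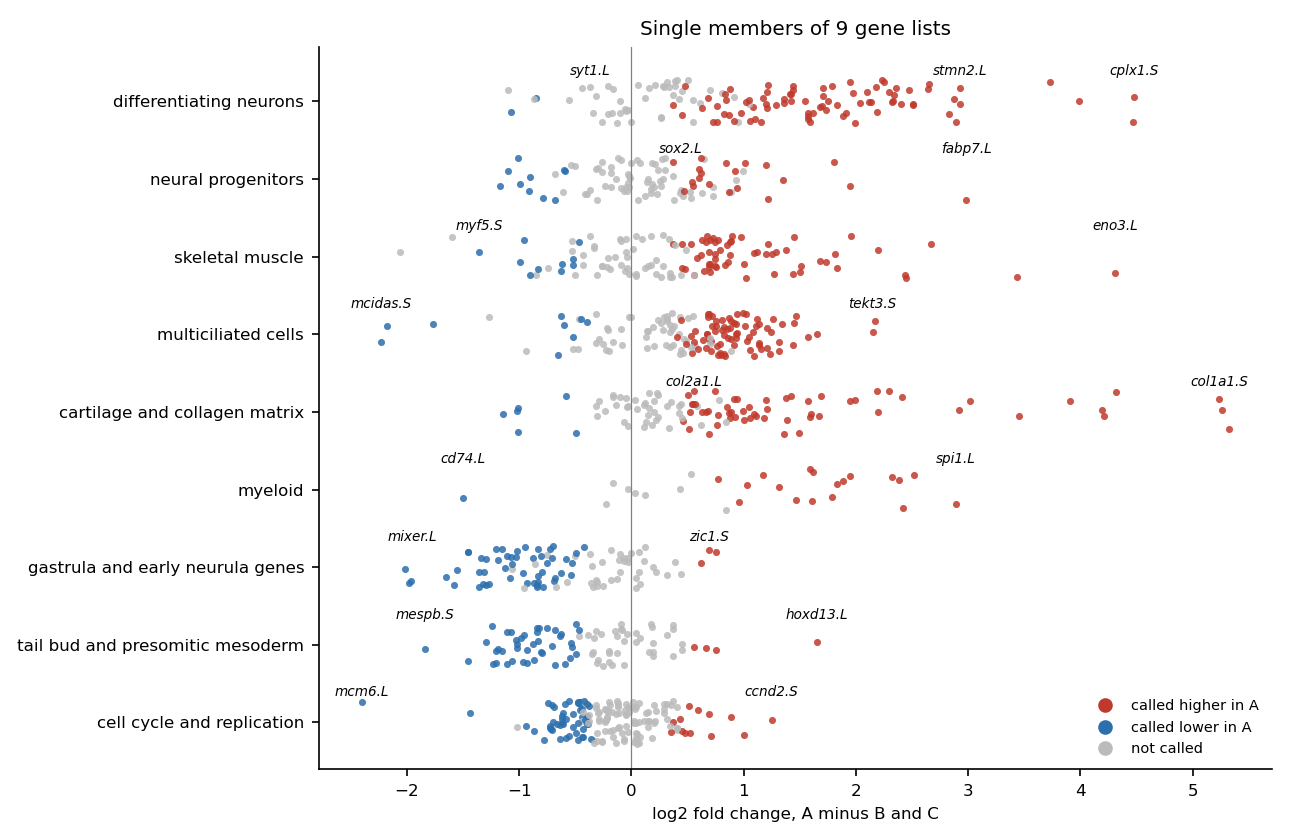
The log2 fold change (A minus B and C) of each tested member of 9 gene lists, colored by whether it was called higher, called lower or not called, with some members named. In the muscle and multiciliated lists most called members lie on the right while myf5.S, at −1.36, and mcidas.S, at −2.23, lie on the left.

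Among the other cells of the skin, 23 of 51 ionocyte genes were higher and 2 lower. These cells pump acid and ammonium. rhbg.S, an ammonium transporter, had 34.8, 40.0, 26.0 and 33.5 CPM in A libraries, against 4.91 to 12.7 CPM with a median of 6.82 in B and C libraries (log2 fold change 2.21, standard error 0.15, edgeR adjusted p = 4.78e-07). rhcg.L, of the same family, was higher by 2.63 and the proton pump subunit atp6v1h.L by 1.17, while their factor foxi1.L was not (0.00, edgeR adjusted p = 0.998). atp12a.S, a proton and potassium pump that is not in the ionocyte list, was among the largest changes of all, with 67.2, 36.0, 50.5 and 33.8 CPM in A libraries, against 0 to 2.29 CPM with a median of 1.23 in B and C libraries (log2 fold change 5.303, standard error 0.36, edgeR adjusted p = 2.50e-06). Of 96 epidermal genes 21 were higher and 14 lower, near the background, and 6 lower without thioridazine 100 A. Single genes moved far: the keratin krt12.2.L was higher by 3.72 and s100a10.L by 2.31, and the plakophilin pkp1.L of cell junctions was lower at −2.303, as was gata2.S, an early factor of ventral ectoderm, at −0.97. astl2g.L, one of the astacin proteases, a family that holds the hatching enzymes, was higher by 4.198. Of 7 hatching gland genes 2 were higher and 0 lower, with a median of 0.01. The astacins astl2a.S (0.00, edgeR adjusted p = 0.998), astl3c.L (0.92, edgeR adjusted p = 0.11) and astl.L (−0.91, edgeR adjusted p = 0.0873) were not called. Of 20 genes of cement gland and mucus 1 was higher and 1 lower, and ag1.L, a cement gland protein, was not called (0.09, edgeR adjusted p = 0.644).

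Kidney, endoderm and pigment lists held members on both sides. Of 50 pronephros genes 15 were higher and 8 lower, and 5 lower without thioridazine 100 A. The transporters slc6a13.L and slc4a4.S were higher by 2.37 and 2.01, and the early kidney factor pax8.S was lower at −1.08. Other transporters were lower, slc5a9.L at −1.11, slc22a4.L at −0.79 and slc9a3.L at −0.73. slc12a1.L, the salt transporter of the distal tubule, was not called (−0.05, edgeR adjusted p = 0.838). Of 60 genes of endoderm and liver 14 were higher and 12 lower, and 9 higher without control 300 A. sox17a.L, which specifies endoderm in the gastrula, had 40.9, 20.8, 13.8 and 34.2 CPM in A libraries, against 36.1 to 117 CPM with a median of 60.6 in B and C libraries (log2 fold change −1.34, standard error 0.28, edgeR adjusted p = 0.00381), with overlap. sox17b.1.L and foxa4.L were lower at −1.32 and −1.35, and so was the liver product tf.L at −1.53. The lipid carrier apoe.S had 96.9, 129.6, 152 and 87.2 CPM in A libraries, against 6.31 to 19.8 CPM with a median of 8.62 in B and C libraries (log2 fold change 3.61, standard error 0.19, edgeR adjusted p = 1.06e-07), and the liver factor hnf4a.S and the clotting factor f10.L were higher by 2.16 and 1.84. Of 27 pigment cell genes 6 were higher and 5 lower. mitf.L and mitf.S, the factor of melanocytes, were higher by 2.60 and 1.74, while gpnmb.L, slc24a5.S and pmel.S, products of pigment granules, were lower at −1.52, −2.11 and −1.02. Their other copies slc24a5.L (0.29, edgeR adjusted p = 0.492) and pmel.L (0.78, edgeR adjusted p = 0.0509) and the melanin enzyme tyrp1.L (−0.34, edgeR adjusted p = 0.342) were not called. ednrb2.S, an endothelin receptor of pigment cell precursors, had 3.70, 4.70, 5.83 and 2.78 CPM in A libraries and 1 count over the 8 B and C libraries, a ratio of 179 with a 95% counting interval of 31.5 to 7130. It passed the filter through A libraries alone.

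Of neural crest and arch genes 27 of 83 were higher and 11 lower. The higher count was 16 and the median of 0.09 turned to −0.03 without control 100 A, and the lower count was 2 without control 300 A. The mesenchyme factor prrx2.S had 11.5, 10.5, 22.6 and 12 CPM in A libraries, against 0.606 to 3.03 CPM with a median of 2.03 in B and C libraries (log2 fold change 2.79, standard error 0.23, edgeR adjusted p = 3.09e-06), and the endothelin receptor ednra.L was higher by 1.27. sox10.L, the factor of migrating crest, was not called (0.04, edgeR adjusted p = 0.903). Of 56 genes of placodes and ear 10 were higher and 6 lower, and 4 higher and 3 lower without thioridazine 100 A, with eya4.L at 3.58. These shares, 17.9% higher and 10.7% lower, did not exceed those over all genes. The 6 lower were the L and S copies of pax8 (−0.89 and −1.08), foxi2 (−0.58 and −0.84) and fgf8 (−0.54 and −0.53). oc90.S, a protein of the otoconia in the inner ear, had 1.36, 1.85, 3.44 and 1.76 CPM in A libraries and no count in any B or C library, so it was at least 30.1-fold higher against a floor of 3 counts over that group. This bound leaves out counting error in A libraries, and the 95% counting interval of the ratio starts at 23.7. oc90.S passed the filter through A libraries alone. In the lens and retina list 9 of 20 genes were higher and 2 lower, and 4 higher without control 300 A, with the lens and lymphatic factor prox1.S at 2.62 and the retinaldehyde dehydrogenase aldh1a1.S at 2.55. The 2 lower were the copies of crx, crx.L at −1.59 and crx.S at −0.74. cryba2.S (0.21, edgeR adjusted p = 0.593) and the other copy aldh1a1.L (0.52, edgeR adjusted p = 0.283) were not called.

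Genes of the gastrula and early neurula were lower in 51 of 93 cases and higher in 3, and higher in 0 without thioridazine 100 A. Of the 93 genes 75 were also in other lists, among them cdx4.S, which is in the tail bud list too. pou5f3.1.L, a frog counterpart of the pluripotency factor Oct4, had 71.2, 32.2, 31.0 and 76.4 CPM in A libraries, against 109.7 to 201 CPM with a median of 122 in B and C libraries (log2 fold change −1.46, standard error 0.24, edgeR adjusted p = 0.000629), and pou5f3.2.L was lower at −1.65. The T-box factor vegt.S of early mesoderm and endoderm was lower at −1.54, gdf3.S, a ligand of the TGF-beta family, at −1.98, and the homeobox gene sebox.L at −2.02. gsc.L, of the gastrula organizer, was not called (−0.50, edgeR adjusted p = 0.284). Leaving out 1 library left 37 to 53 lower, the fewest without the A library of thioridazine groups of 100.

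The tail bud and presomitic mesoderm list, which shares 70 of its 84 tested genes with other lists, had 42 lower and 4 higher, and 1 higher without thioridazine 100 A. tbx6.L, which keeps cells of the presomitic mesoderm in that fate, had 42.6, 48.0, 40.1 and 71.8 CPM in A libraries, against 80.8 to 157 CPM with a median of 111 in B and C libraries (log2 fold change −1.23, standard error 0.21, edgeR adjusted p = 0.000702). The groups did not overlap. tbxt.L, brachyury, of notochord and tail bud, was lower at −1.21, cdx4.S and cdx1.L, which set posterior identity, at −1.301 and −1.46, mespb.S, of the next somite to form, at −1.84, and the segmentation gene ripply2.2.S at −0.98. The 4 higher genes included hoxd13.L (1.65), which belongs to the last hox group to come on. Over all hox genes tested, groups 1 to 5 had 2 higher and 4 lower of 22, groups 6 to 9 had 1 higher and 10 lower of 18, and groups 10 to 13 had 3 higher and 0 lower of 12, with medians of −0.12, −0.41 and 0.37. These spans were chosen after the values were seen. hoxc8.S was lower at −0.98 and hoxa7.S at −0.93, hoxb1.L at −0.95, and hoxc12.L was higher by 0.89.

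Maternal and germ line genes were lower in 17 of 52 cases and higher in 6, and lower in 11 without control 300 A. ccna1.S, the cyclin A of the egg and cleaving embryo, had 2.34, 0.142, 1.32 and 2.05 CPM in A libraries, against 7.38 to 16.2 CPM with a median of 10.6 in B and C libraries (log2 fold change −2.90, standard error 0.39, edgeR adjusted p = 0.00016). It passed the filter through B and C libraries alone. ddx4.L, the germ cell helicase vasa, was lower at −1.02 and tdrd6.L, of the germ plasm, at −1.34, while dazl.L was not called (−0.46, edgeR adjusted p = 0.6). mcm6.L, a subunit of the replicative helicase for which *Xenopus* has a maternal and a zygotic form, had 4.48, 4.41, 3.05 and 6.88 CPM in A libraries, against 16.8 to 31.4 CPM with a median of 24.9 in B and C libraries (log2 fold change −2.40, standard error 0.19, edgeR adjusted p = 1.62e-06). Both copies of mcm6.2, at 0.03 and 0.18, were not called (edgeR adjusted p = 0.893 and 0.422). Of 160 cell cycle and replication genes 50 were lower and 13 higher, and 6 higher without thioridazine 100 A. Lower were genes of mitosis such as aurka.L (−0.87), prc1.L (−0.78) and ccna2.L (−0.62), and higher were the G1 cyclins ccnd2.L and ccnd2.S (0.69 and 1.25) and the clamp loader subunit rfc5.L (1.003). pcna.L, the first gene of the list, was higher too (0.37, edgeR adjusted p = 0.0365), a call lost in 12 of 23 alternative settings. Leaving out 1 library left 28 to 62 lower, the fewest without the A library of thioridazine groups of 300. Of the other largest changes on the low side, the tetraspanin tspan33.L had 6.03, 8.54, 3.84 and 7.32 CPM in A libraries, against 34.3 to 56.6 CPM with a median of 45.0 in B and C libraries (log2 fold change −2.82, standard error 0.16, edgeR adjusted p = 1.84e-07), and gs17.L, the tubulin tubal3.1.S, the monooxygenase fmo5.1.L, the cytoskeletal protein epb41l1.S and the peptidase dpp4.L were lower at −2.48, −2.44, −2.28, −2.22 and −2.19. The changes of LOC108700083 (−4.26) and LOC121399530 (−3.05), which have no gene symbol, were larger than that of tspan33.L.

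Among stress genes, 19 of 56 heat shock and chaperonin genes were lower and 3 higher, with hsph1.L at −1.40 and hspa8.L at −0.76 on the low side and the small heat shock protein hspb1.S, also a muscle protein, at 3.89 on the high side. In the unfolded protein list 20 of 80 were lower and 9 higher, with hspa5.L, the chaperone BiP, at −0.94. Of 79 proteasome genes 16 were lower and 2 higher, and 7 lower without thioridazine 100 A. The hypoxia list had 16 of 44 higher and 3 lower, the lysosome and yolk breakdown list 15 of 50 higher and 7 lower, cholesterol synthesis and uptake 10 of 38 higher and 2 lower, and interferon and inflammation 5 of 48 higher and 9 lower. Notochord had 11 of 42 higher and 8 lower, and somite compartments 9 of 36 higher and 6 lower. These smaller counts moved with single libraries. Without thioridazine 100 A there were 3 cholesterol genes higher, 0 hypoxia genes lower, 4 notochord genes lower and 4 somite genes higher. Without control 300 A there were 3 lysosome genes lower, and without thioridazine 300 A 2 somite genes lower. Of signaling lists, 18 of 75 Hedgehog and retinoic acid genes were lower and 12 higher, 11 of 47 FGF genes lower and 6 higher, 15 of 88 Wnt genes lower and 22 higher, 16 of 84 BMP and TGF-beta genes lower and 17 higher, and 9 of 55 Notch genes lower and 8 higher. Over all genes tested 15.2% were lower and 20.0% higher. The Wnt (17% and 25%), BMP and TGF-beta (19% and 20.2%), Notch (16.4% and 14.5%), notochord (19% and 26.2%) and somite (16.7% and 25%) shares were near that background. Without thioridazine 100 A the counts were 6 lower and 13 higher for Wnt and 8 lower and 10 higher for BMP and TGF-beta. Without control 300 A they were 4 lower for FGF and 5 higher for Notch, without thioridazine 300 A 2 higher for FGF, and without control 100 A 29 lower for Hedgehog and retinoic acid. The retinoic acid degrading enzyme cyp26b1.L was higher by 2.99, and hes5.10.L, a Notch target that holds back neuronal differentiation, was lower at −1.01. The hes5 copies are near-identical, so reads may be divided wrongly among them.

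The A difference was not of the same size in every group. For neurons the median over members of A minus the mean of B and C was 0.65, 1.11, 0.95 and 1.54 in the 4 groups, for matrix 0.26, 0.52, 0.76 and 0.92, for multiciliated cells 0.62, 0.58, 0.62 and 0.57, and for gastrula genes −0.50, −0.97, −0.81 and −0.42. Each of these lists had 1 sign in all groups. Ribosomal proteins were at 0.40, 0.11, 0.58 and −0.49 and respiratory chain genes at 0.33, 0.04, 0.62 and −0.58. The sign was thus the opposite in control groups of 100, where B and C as well as A lay apart from control groups of 300. Mean centered scores of ribosomal proteins were −0.233 in A, 0.277 in B and 0.356 in C, against 0.274, −0.384 and −0.282. For respiratory chain genes they were −0.220, 0.268 and 0.312, against 0.355, −0.347 and −0.252. Of 137 ribosomal protein genes 5 were higher and 1 lower, 57 were higher without control 100 A and 1 without thioridazine 300 A. Of 125 respiratory chain genes 17 were higher and 3 lower. Without control 100 A 40 were higher and without control 300 A 6, while the median of 0.17 turned to −0.04 without control 300 A.

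Immediate early genes were higher in 26 of 69 cases and lower in 7. fos.L, a factor induced within minutes of a stimulus, had 49.6, 30.5, 1.59 and 1.90 CPM in A libraries, against 0.753 to 5.78 CPM with a median of 1.74 in B and C libraries (log2 fold change 2.62, standard error 0.41, edgeR adjusted p = 0.000576). Both thioridazine A libraries were above all B and C values. Both control A libraries lay inside that range, whose highest value belonged to a thioridazine library. nr4a1.S, an inducible nuclear receptor, had 106, 51.0, 15.4 and 14.5 CPM in A libraries, against 5.71 to 27.9 CPM with a median of 9.48 in B and C libraries (log2 fold change 1.65). The list had 14 members higher among thioridazine libraries alone and 4 among control libraries alone, and 12 without the A library of thioridazine groups of 300. In the test of the difference itself, neither fos.L (log2 difference 2.64, standard error 0.55, edgeR adjusted p = 0.6253) nor nr4a1.S (log2 difference 0.62, standard error 0.32, edgeR adjusted p = 1) passed.

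**Figure D5:**
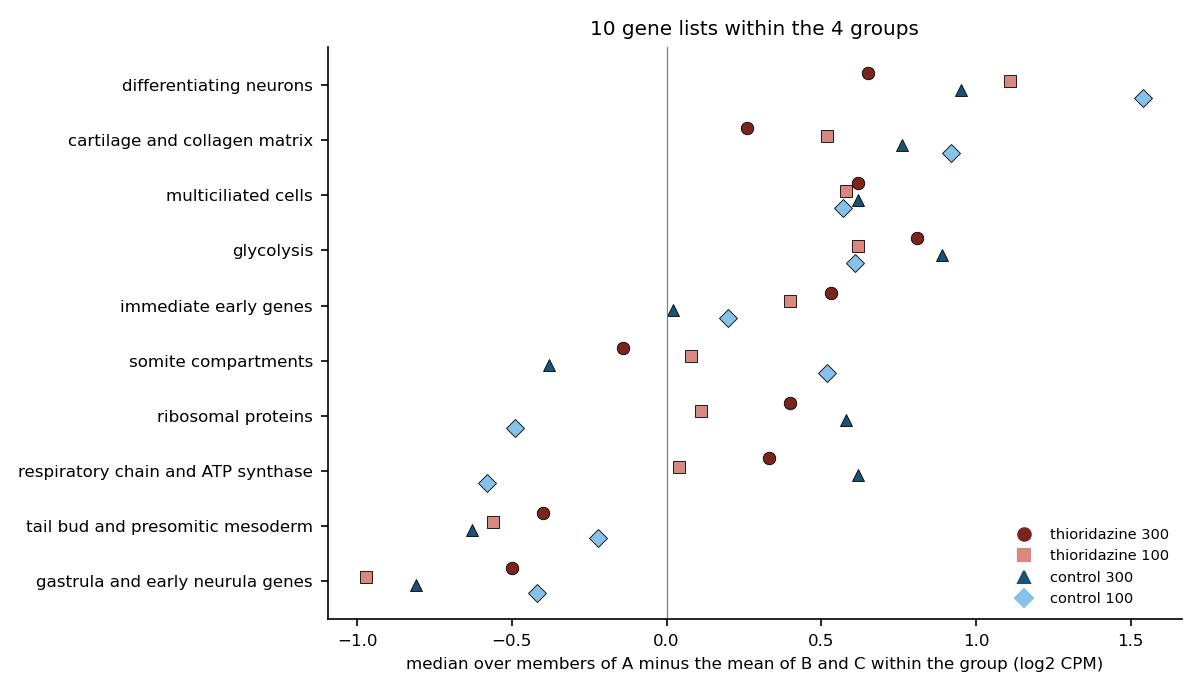
The median over the members of 10 gene lists of A minus the mean of B and C (log2 CPM) within each of the 4 groups. Neurons, matrix, multiciliated cells and glycolysis lie to the right and tail bud and gastrula genes to the left in all groups, while ribosomal proteins are at 0.40, 0.11, 0.58 and −0.49.

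Tested over all genes with edgeR, the A difference depended on treatment for 2 genes (0.00920%), 1 larger (0.00460%) and 1 smaller (0.00460%) under thioridazine. It depended on group size for 7 (0.0322%), 5 larger (0.0230%) and 2 smaller (0.00920%) in groups of 300. Without adjustment, 730 genes for treatment and 4082 for size had a p below 0.05. If no gene differed, a share of about 0.05 of the 21731 genes would do so. The number for treatment lay below that share and the number for size above it. DESeq2 called 0 and 374, and edgeR called 0 to 2066 for group size when 1 library was left out, with 0 without either control A library and 2066 without the B library of thioridazine groups of 100. For treatment it called 1 to 5, the fewest without the C library of thioridazine groups of 100 and the most without the B library. ldhb.S, lactate dehydrogenase B, had 148, 82.6, 199 and 88.7 CPM in A libraries, against 26.7 to 73.7 CPM with a median of 41.1 in B and C libraries, and the difference was larger in groups of 300 (log2 difference 1.56, standard error 0.25, edgeR adjusted p = 0.0334). ocm4.4.S had 7.01, 8.54, 22.4 and 2.49 CPM in A libraries, against 0 to 2.02 CPM with a median of 1.02 in B and C libraries (log2 difference 4.95, standard error 0.79, edgeR adjusted p = 0.0334). dchs1.S, a large cadherin of planar cell polarity, had 29.97, 54.7, 49.8 and 67.2 CPM in A libraries, against 17.4 to 46.9 CPM with a median of 26.7 in B and C libraries (log2 difference −1.44, standard error 0.24, edgeR adjusted p = 0.0421). The treatment calls were LOC121392962, a small nuclear RNA at 0 in 7 of the 12 libraries, and LOC108703479, at 0 in 9, so these rest on the presence or absence of reads.

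Of the 4342 genes called higher, 3560 lay above both B and C in each of the 4 groups, and of the 3294 called lower, 2483 lay below both. The calls were made from these same values, so these counts are not a separate check. The share over all genes tested was not counted. Of 5586 homeolog pairs with both copies tested, 527 had both called higher, 411 both lower, 57 opposite directions, 1870 one copy called and 2721 neither.

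Gene span moved with the letter. Genes were divided into 4 equal parts by the span of the gene in the annotation, and 14.0% of the shortest and 27.0% of the longest were higher in A libraries, while 19.3% and 9.19% were lower. Of all genes, 1721 of 10865 below the median span were higher and 2021 lower, and 2621 of 10865 above it were higher and 1273 lower. Among neuronal genes 25 of 49 below the median span were higher and 56 of 78 above it, in the muscle list 33 of 61 and 26 of 58, in the matrix list 13 of 19 and 44 of 84, in the multiciliated list 33 of 69 and 43 of 69, in the glycolysis list 23 of 32 and 10 of 17, and in the myeloid list 8 of 13 and 10 of 14. These lists were therefore higher among short and long genes. Of tail bud genes 38 of 72 below the median span were lower, with a median log2 fold change of −0.49, and 4 of 12 above it, with a median of 0.00. Of gastrula genes 50 of 89 below and 1 of 4 above were lower, and of cell cycle genes 37 of 106 and 13 of 54. For lists not named here the part of gene span was not tested.

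Of 78 small nucleolar RNAs 4 were called, all lower. Mean centered scores of the small nucleolar RNAs were −0.63 to −0.15 in A libraries, inside the range of −1.09 to 1.36 in B and C libraries. Of 437 long non-coding RNAs 117 were lower and 27 higher.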

How the data were processed

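Whole-embryo RNA of 12 libraries, made with a ribosomal RNA depletion kit and sequenced from 1 end, had been aligned and quantified by the authors, whose notes name Bowtie2, STAR and RSEM. The study gives a version for the rRNA sequence that reads were aligned to, and none for these tools or for the genome. The authors deposited expected counts for 42638 genes from RSEM, of which 25.7% of the values were not whole, and a log2 table for 21720 genes that they had scaled by TMM and transformed with voom before depositing it. Here the expected counts were rounded, genes with at least 1.8 CPM in 3 or more libraries kept (21731 genes), and A libraries tested against B and C libraries with edgeR 4.0.16 in R 4.3.3 (TMM scaling, robust quasi-likelihood fit, group as a term, Benjamini-Hochberg adjustment over all genes tested, threshold 0.05). A second fit had the 3 letters apart and another the interaction of A with treatment and with group size. Log2 fold changes are A minus B and C, and CPM uses TMM-scaled totals. CPM is not scaled by gene length, so levels of different genes are not compared. Depth, at 3497198 to 7822395 counts a library, limits low genes. On simulated counts 87% of genes changed 2-fold and 100% of those changed 4-fold were recovered, with 8 false among 195 calls. Only 200 genes were changed there, none of them at low counts. The simulated libraries held no difference between groups or between B and C. These shares therefore do not carry over to low genes or to a table in which many genes differ.

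The letters come from the sample descriptions and match the numbers 1, 2 and 3 of the titles. Identifiers were matched to RefSeq symbols (Xenopus_laevis_v10.1) for 40077 genes (94%), and 4748 genes tested (21.8%) had no symbol. The members and lists were chosen with earlier results of these data known. Genes were named by a rule: per direction the 10 largest changes with no overlap between the A and the B and C values and at least 10 CPM on the higher side, at most 2 of them without a symbol, of each list with at least 8 tested members the first tested gene as written and the 2 members with the smallest p, and up to 5 called genes per direction for each interaction. Not every gene picked by the rule is described above, so the genes described are not an unselected set. Left out, among others, were first genes of lists that were not called. These were nkx2-5.L (−0.26), tp63.L (0.08), pax3.L (0.01), shh.L (−0.09) and bmp4.L (−0.15). Other genes named were chosen after their values were seen. No list was given a test. Alternatives were DESeq2 1.42.0, RLE factors, library totals, no filter, a 10 CPM filter, thinned counts, the fit with letters apart, no group term, limma 3.58.1 on the authors' log2 table, each treatment alone and leaving out each library. List counts and most genes outside the rule under these settings, and the split by gene span, were added after seeing the data.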

Additional observations from a re-analysis of the deposited data

Results flagged for a closer look

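Within the 4 A libraries or the 8 B and C libraries, the highest or lowest value stood apart from the nearest other by more than Dixon's limit in the cases given here. Chance gives about 1 in 20 groups so marked, so with many genes and lists screened a share of these cases can be due to chance. Mean centered log2 scores over a list stood apart in A libraries for somite compartments, where the library of control groups of 100 was highest at 0.30, for Wnt genes, where the same library was highest at 0.22, for epidermis, where the library of thioridazine groups of 300 was highest at 0.31, and for Notch genes, where the library of thioridazine groups of 100 was lowest at −0.18.

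Single genes stood apart in A libraries as follows. In control groups of 300, LOC108714718 was highest at 51.9 CPM and prrx2.S at 22.6 CPM. In control groups of 100, myh4.L was highest at 1050 CPM, notch1.L at 130 CPM and LOC108703479 at 15.5 CPM, while irf1.L was lowest at 2.19 CPM. Among B and C libraries, the C library of thioridazine groups of 300 was highest for g6pc1.3.S at 1.52 CPM, LOC108714718 at 2.12 CPM, fdps.S at 11.5 CPM and hes7.2.S at 14.2 CPM. The C library of control groups of 300 was highest for robo4.L at 5.17 CPM, ednrb2.S at 0.178 CPM, slc6a13.L at 11.8 CPM and apoe.S at 19.8 CPM. The B library of control groups of 100 was highest for atp6v1h.L at 22 CPM, tgfbr2.S at 17.3 CPM and ldhb.S at 73.7 CPM, and the B library of control groups of 300 for hoxd1.S at 15.4 CPM.

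The A difference itself differed between conditions in edgeR's interaction test for 8 genes. The log2 difference was 10.50 for LOC121392962 and −8.70 for LOC108703479 for thioridazine minus control. For groups of 300 minus groups of 100 it was 10.80 for LOC121392962, −5.43 for LOC108703502, 4.95 for ocm4.4.S, 2.02 for LOC108695356, 1.56 for ldhb.S, 1.54 for LOC121394345 and −1.44 for dchs1.S.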

How the results depend on the processing

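No call of a gene named by the rule reversed under any alternative run. For the genes called as a whole only the counts were compared. Some list medians changed sign. That of heart genes went from 0.04 to −0.08 with a 10 CPM filter. That of notochord genes went from 0.06 to −0.11 among thioridazine libraries alone. That of somite compartments went from −0.03 to 0.05 with library totals alone. A 10 CPM filter left 5041 genes called (2807 higher), control libraries alone gave 2600 (1697 higher and 903 lower) and thioridazine libraries alone 1361 (942 higher and 419 lower), settings that test fewer genes or fewer libraries. With 1 library left out, the calls ranged from 4913 to 7679, those higher from 2893 to 4359 and those lower from 1926 to 3320, for A against B from 4998 to 8931, for A against C from 5139 to 7701 and for B against C from 205 to 1124. For the dependence on treatment they ranged from 1 to 5 (DESeq2 called 0) and for that on group size from 0 to 2066 (DESeq2 called 374), and the cause was not tested. Over the alternatives, 3278 of the values of genes named by the rule stayed on the same side of the threshold, 91 lost the call, 11 gained it and 1 moved, and of the list medians 1025 moved by less than the spread and 33 by more. No paired analysis was possible because the replicate number that would pair samples is the letter compared. Low genes are limited by depth, since a gene at 1.8 CPM has few counts, and the 4 A libraries share whatever the letter stands for.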
